A study of Rattus norvegicus with 6 samples.

Results

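Sensory neurons of the dorsal root ganglia (DRGs) fall into classes that are told apart by marker genes, and 10 such markers of class and transmitter were followed here among the 25689 genes of the count table. The members, chosen by gene name, were Mrgprd and Lpar3 for non-peptidergic nociceptors, Th and Slc17a8 for C-fibre low-threshold mechanoreceptors (C-LTMRs), Pvalb and Spp1 for proprioceptors, Slc17a6 and Slc17a7 for glutamate release, and Nos1 and Kit. Each name matched 1 protein-coding row. The question was whether the marker of any neuron class differed more than others between rats with and without the operation.

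All 6 samples were neuron preparations from the L1-L2 DRGs of spontaneously hypertensive rats (SHRs). The labels give these rats as wild type and 6 to 8 weeks old, while the methods of the study give an older age at purchase. In 3 rats the perirenal adipose tissue had been surgically ablated (PRATA), the other 3 rats had a sham operation, and the ganglia were taken 4 weeks after the operation. The ganglia were digested with enzymes, and their cells were held in culture for some hours before RNA was taken. Glial cells, which adhere to the dish faster than neurons, were removed on that basis. RNA of other cells could remain, and no selection for neurons that reach the perirenal fat is given. In bulk samples of this kind, fewer cells of a type and less RNA per cell cannot be told apart.

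A sensory neuron of the DRG sends an axon to a peripheral tissue and a branch to the spinal cord, where it releases glutamate that had been loaded into synaptic vesicles by vesicular glutamate transporters. Peptidergic nociceptors also release neuropeptides such as calcitonin gene-related peptide (CGRP), whereas non-peptidergic nociceptors largely lack them and carry receptors such as MRGPRD. C-LTMRs respond to gentle touch of the skin, and proprioceptors report muscle length and tension. These classes were mapped mainly in mice, and several markers are shared between classes or with cells that are not neurons.

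Counts were scaled to a common library total with edgeR's TMM factors and are given as CPM, the usual scale for read counts corrected for depth, and PRATA was compared with sham by edgeR's quasi-likelihood test over all 14919 genes that passed a filter on low counts. The filter kept 9 of the 10 members, and Th fell below it. Total counts ran from 5892967 to 15226952 per sample. The floor was taken as 3 counts, which corresponded to between 0.197 and 0.509 CPM by the raw totals, before TMM scaling. A gene was called at an unadjusted p under 0.05 with an absolute log2 fold change over 1, which 1.17% of the genes tested passed with a higher level and 3.23% with a lower level in PRATA rats (4.4% in either direction). No gene of the table had an adjusted p under 0.05 in edgeR, beside 2734 genes at an unadjusted p under 0.05. With 3 samples against 3, an exact permutation test cannot give a p under 0.10.

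Some libraries stood apart. PRATA replicate 3 and sham replicate 1 had 5.402% and 5.627% of their counts on the 7SL RNA gene Rn7sl1, against between 1.25% and 1.52% in the other 4. They had less on another 7SL copy, and over both copies held 5.46% and 5.66% against between 2.59% and 3.201%. These same libraries had the lowest levels of the pan-neuronal gene Eno2, at 19.6 and 12.6 CPM against between 80.1 and 128 CPM elsewhere. Eno2 did not stand for neuronal RNA as a whole. The sum of 18 pan-neuronal genes was highest in PRATA replicate 3, at 9103 CPM, and lowest in sham replicate 1, at 4429 CPM. Though of opposite groups, PRATA replicate 3 and sham replicate 1 each correlated best with the other (r of log2 CPM 0.948). Sham replicate 2 had the fewest counts but the most genes with a count, 23168, against at most 20672 in any other library. Member values, list medians and calls that change without a library are given beside the result.

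Of the 9 members tested, 3 had an unadjusted p under 0.05 in edgeR, all higher in PRATA rats, where 8.19% of all genes tested did so in this direction. They were Nos1, which encodes neuronal nitric oxide synthase, Kit, which encodes the receptor tyrosine kinase for stem cell factor, and Slc17a6, which encodes the vesicular glutamate transporter VGLUT2. For these 3 members the lowest PRATA sample exceeded the highest sham sample, as for 11.6% of the genes tested (11.2% had every PRATA sample lower, 22.8% either). The groups of the other 6 members tested overlapped. Th also had every PRATA sample higher, but the filter removed it, so these shares do not cover genes as low as Th. Nos1 alone among the members passed the call, and 0 members passed it downward. No member had an adjusted p under 0.05 in edgeR, while DESeq2 placed 2 members and limma voom with sample quality weights 3 members under this value, all higher, as were 1.93% and 2.99% of the genes these tools tested. Without sham replicate 2 edgeR placed 3 members there, beside 1.05% of all genes with a higher level. Of the 9 members 7 had a log2 fold change above 0, as had 52% of all genes tested. The median log2 fold change of the 9 members was 0.46, beside 0.02 over all genes tested and 0.39 over a list of 18 pan-neuronal genes. The members' median rested on single libraries: it was 0.07 without sham replicate 1, 0.17 without PRATA replicate 3, 0.18 without PRATA replicate 1, 0.76 without PRATA replicate 2 and -0.21 with only the 4 samples other than PRATA replicate 3 and sham replicate 1. The pan-neuronal median was 0.26 without sham replicate 1 and 0.66 without sham replicate 2.

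**Figure D1:**
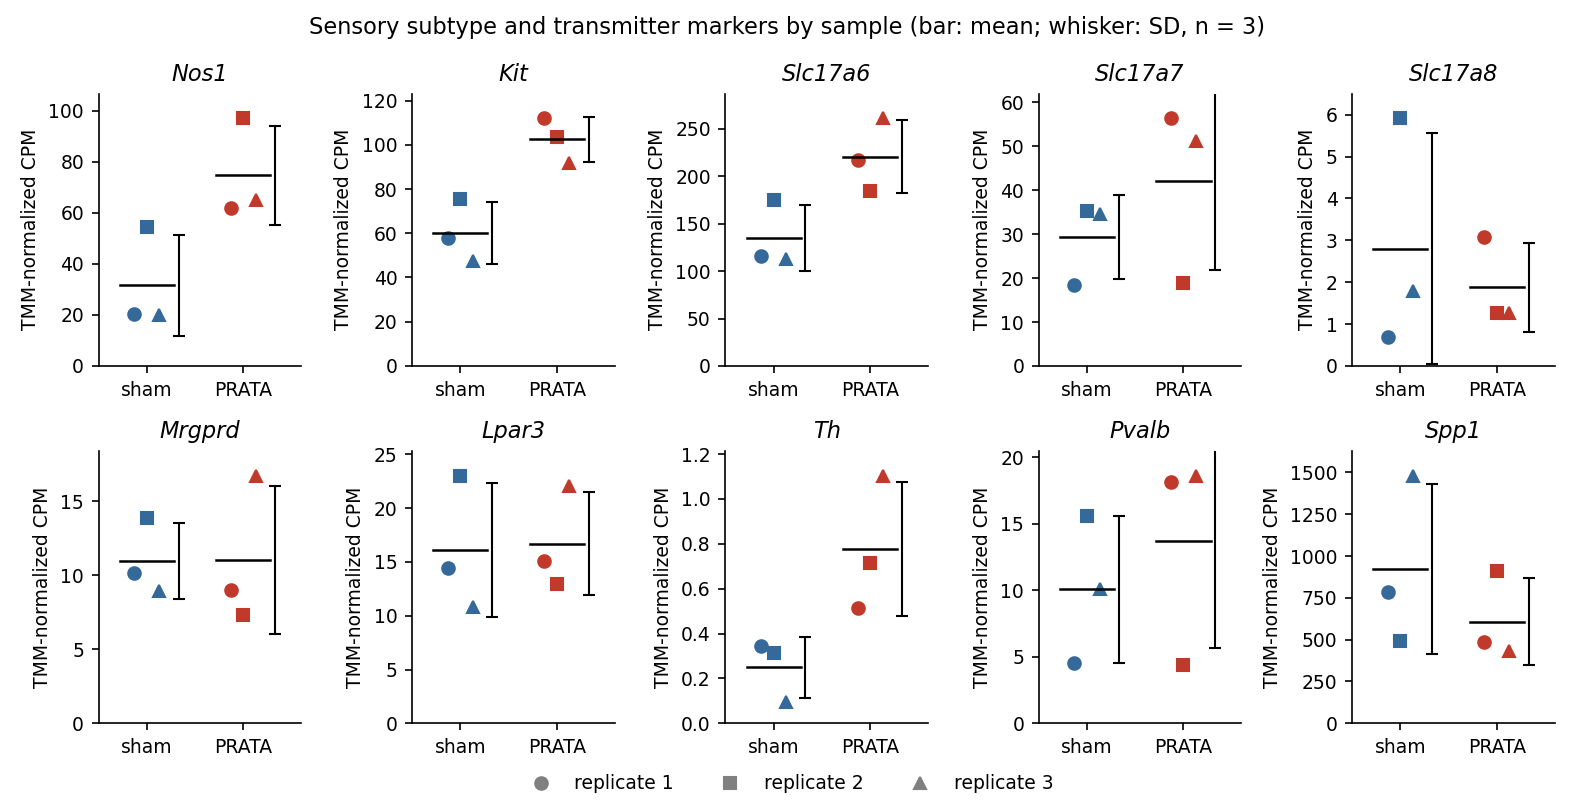
TMM-normalized CPM of the 10 markers in each sample on linear axes that start at 0, with sham samples in blue, PRATA samples in red and a symbol for each replicate number; the bars are means and the whiskers SD with n = 3. The groups are apart for Nos1, Kit, Slc17a6 and Th, and sham replicate 2 is the sham sample nearest to the PRATA samples for Nos1, Kit and Slc17a6.

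Nos1 (ENSRNOG00000001130) makes nitric oxide, a diffusible messenger that relaxes vessels and acts on soluble guanylate cyclase. It was at 61.9, 97.1 and 65.0 CPM in PRATA replicates 1, 2 and 3 and at 20.3, 54.5 and 20.0 CPM in sham replicates 1, 2 and 3. The highest value belonged to PRATA replicate 2, and sham replicate 2 came close to the PRATA samples while the other sham samples lay far below. The group means were 74.7 ± 19.5 CPM (SD, n = 3) and 31.6 ± 19.8 CPM (SD, n = 3). The log2 fold change was 1.25 (standard error 0.41, 95% interval 0.31 to 2.19), with an unadjusted p of 0.0151 and an adjusted p of 0.194 in edgeR's quasi-likelihood test. The exact permutation test gave 0.10, the smallest p it can give. Without sham replicate 2 the log2 fold change of Nos1 was 1.89 (adjusted p in edgeR 0.0278). When PRATA replicate 2, sham replicate 1 or sham replicate 3 was left out, it lay between 1.003 and 1.02 and the unadjusted p in edgeR was 0.0559, 0.0529 and 0.0545. Over its 13 alternatives the adjusted p of Nos1 lay between 0.0278 and 0.550.

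Kit (ENSRNOG00000002227) marks a subset of DRG neurons and also mast cells and melanocytes. It was at 112, 104 and 91.9 CPM in PRATA replicates 1, 2 and 3 and at 57.9, 75.3 and 47.7 CPM in the corresponding sham replicates. The PRATA samples lay close together and all above the sham samples. The mean was 103 ± 10.1 CPM (SD, n = 3) in PRATA rats and 60.3 ± 13.99 CPM (SD, n = 3) in sham rats, a log2 fold change of 0.77 (standard error 0.20, 95% interval 0.30 to 1.23). Its unadjusted p of 0.00533 in edgeR was the smallest of the members, with an adjusted p of 0.168. Kit kept an unadjusted p under 0.05 in all 13 alternatives, with log2 fold changes between 0.63 and 0.97 and adjusted p between 0.0330 and 0.550.

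The mast cell list of 9 genes summed to between 1.29 and 4.26 CPM in PRATA samples and between 1.04 and 7.47 CPM in sham samples, and only its gene Gata2 passed the filter. None of Cpa3, Fcer1a, Ms4a2, Tpsb2, Tpsab1, Hdc and Cma1 had more than 8 counts in any sample. Of the 5 melanocyte genes listed, 4 were in the count table, and Tyr fell below the filter. The 3 melanocyte genes tested were all lower in PRATA rats, with a median log2 fold change of -0.74. Tyrp1, an enzyme of melanin synthesis, was at 180 ± 53.1 CPM (SD, n = 3) in PRATA rats and 409 ± 66.9 CPM (SD, n = 3) in sham rats, a log2 fold change of -1.18 (adjusted p in edgeR 0.156). Kitlg, the ligand of KIT, was at 70.3 ± 10.6 CPM and 52.0 ± 10.4 CPM (SD, n = 3 each), with overlapping groups and a log2 fold change of 0.43 (adjusted p in edgeR 0.308). Of the 8 genes of KIT's ligand and signalling proteins, 4 were higher and 4 lower, 0 passed the call and the median log2 fold change was 0.00.

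Slc17a6 (ENSRNOG00000016147) is the vesicular glutamate transporter used by most DRG neurons, whereas Slc17a7 (VGLUT1) is found mainly in large myelinated neurons and Slc17a8 (VGLUT3) mainly in C-LTMRs. Slc17a6 was at 217, 184 and 261 CPM in PRATA replicates 1, 2 and 3 and at 116, 175 and 113 CPM in sham replicates 1, 2 and 3. The lowest PRATA sample and the highest sham sample, both replicate 2, were close. The mean was 221 ± 38.7 CPM (SD, n = 3) in PRATA rats and 135 ± 35.1 CPM (SD, n = 3) in sham rats, a log2 fold change of 0.71 (standard error 0.23, 95% interval 0.17 to 1.25, edgeR p 0.0158 unadjusted and 0.196 adjusted). The unadjusted p in edgeR was 0.0617 without PRATA replicate 3, 0.0515 without sham replicate 1, 0.0599 without sham replicate 3 and 0.127 with only the 4 samples other than PRATA replicate 3 and sham replicate 1. Without sham replicate 2 the log2 fold change of Slc17a6 was 0.95 (adjusted p in edgeR 0.0470), and over its 13 alternatives the adjusted p lay between 0.0398 and 0.551.

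Slc17a7 (ENSRNOG00000020650) was at 56.4, 19.0 and 51.2 CPM in the PRATA samples and at 18.3, 35.2 and 34.6 CPM in the sham samples, in the order of their replicate numbers. PRATA replicate 2 lay at the bottom of the range with sham replicate 1, so the groups overlapped. The log2 fold change was 0.53 with a 95% interval from -0.44 to 1.49 (adjusted p in edgeR 0.526), and without PRATA replicate 2 it was 0.88 (edgeR p 0.0238 unadjusted and 0.294 adjusted). Slc17a8 (ENSRNOG00000007581) had between 10 and 38 counts per sample, at 3.09, 1.27 and 1.26 CPM in PRATA rats and 0.689, 5.91 and 1.79 CPM in sham rats. Its log2 fold change of -0.54 turned to 0.59 when sham replicate 2, its highest sample, was left out, and its 95% interval reached from -2.33 to 1.25 (adjusted p in edgeR 0.741).

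Of the 11 genes tested in a list of glutamate synthesis and uptake, 8 were higher and 3 lower in PRATA rats, with a median log2 fold change of 0.10, which was 0.03 without PRATA replicate 3 and 0.16 without PRATA replicate 2. Gls2, a glutaminase that makes glutamate from glutamine, was at 21.2 ± 5.05 CPM in PRATA rats and 13.05 ± 1.53 CPM in sham rats (SD, n = 3 each), with groups apart and a log2 fold change of 0.71 (edgeR p 0.0154 unadjusted and 0.196 adjusted). Slc7a11, the cystine and glutamate exchanger, was the only gene of the list past the call and was lower, at 41.0 ± 12.9 CPM against 113 ± 68.6 CPM (SD, n = 3 each), a log2 fold change of -1.46 (adjusted p in edgeR 0.175). Sham replicate 3 held the highest level of Slc7a11, 192 CPM, and without it the log2 fold change was -0.83 and the call was lost.

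The sequences before the annotated starts are shown for the 3 members picked by an unadjusted p under 0.05 in edgeR, each of them higher in PRATA rats. Each run holds 250 bases, 5′ to 3′, up to the RefSeq start of the gene, and RefSeq gave such a sequence for 9 of the 10 members. Capitals mark matches, on either strand, to the TATA box letters TATAAA, the GC box letters GGGCGG, the cyclic AMP response element (CRE) letters TGACGTCA and its core TGACG, which overlaps the full element. Only the annotated start is shown, and the counts do not tell which start these neurons used.
Nos1, RefSeq build GRCr8, chr12:44371838-44372087, strand minus: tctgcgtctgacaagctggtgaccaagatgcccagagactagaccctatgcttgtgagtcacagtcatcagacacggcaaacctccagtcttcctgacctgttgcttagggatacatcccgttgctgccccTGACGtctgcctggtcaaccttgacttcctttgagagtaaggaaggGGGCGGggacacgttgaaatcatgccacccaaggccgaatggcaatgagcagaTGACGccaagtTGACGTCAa
Kit, RefSeq build GRCr8, chr14:32978813-32979062, strand minus: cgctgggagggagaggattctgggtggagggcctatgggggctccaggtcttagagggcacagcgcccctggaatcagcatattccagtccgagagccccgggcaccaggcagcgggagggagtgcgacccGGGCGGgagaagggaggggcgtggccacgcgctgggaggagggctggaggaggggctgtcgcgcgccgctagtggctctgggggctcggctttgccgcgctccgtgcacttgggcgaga
Slc17a6, RefSeq build GRCr8, chr1:110348197-110348446, strand plus: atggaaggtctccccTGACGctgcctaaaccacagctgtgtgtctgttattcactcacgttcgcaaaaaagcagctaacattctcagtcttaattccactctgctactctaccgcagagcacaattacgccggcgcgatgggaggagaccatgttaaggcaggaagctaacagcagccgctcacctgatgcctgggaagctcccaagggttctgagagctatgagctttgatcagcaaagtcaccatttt
Nos1 held the full CRE letters 9 bases before the start, which 1.59% of 33469 promoters of the same length hold, and 4 matches to the core, which begin 119, 20, 9 and 6 bases before the start, the last pair within the full element. The core was found in 18.2% of all promoters, 1 match stood 235 bases before the start of Slc17a6, and Kit held 0. The GC box letters, found in 30.5% of promoters, stood 73 bases before the start of Nos1 and 119 bases before that of Kit, and TATAAA, found in 12.9%, was in none of the 3. Kit had 70.8% G and C in this window, Nos1 54.0% and Slc17a6 50.8%, beside a median of 51.2% over all promoters. A match is a description of the letters and no measurement of binding.

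For the non-peptidergic class, Mrgprd (ENSRNOG00000013448), a receptor that responds to beta-alanine, was at 9.01, 7.31 and 16.7 CPM in PRATA replicates 1, 2 and 3 and at 10.1, 13.9 and 8.95 CPM in sham replicates 1, 2 and 3. PRATA replicates held both the lowest and the highest value. The means were 11.01 ± 5.01 CPM and 10.98 ± 2.56 CPM (SD, n = 3 each), a log2 fold change of 0.02 whose 95% interval ran from -0.78 to 0.81 (adjusted p in edgeR 0.987). Changes within this interval could not be told from none, and the sign turned in 8 of 13 alternatives. Lpar3 (ENSRNOG00000015260), a receptor for lysophosphatidic acid (LPA), was at 15.1, 12.95 and 22.1 CPM in PRATA rats and 14.5, 23.0 and 10.8 CPM in sham rats. Its log2 fold change was 0.06, with a 95% interval from -0.68 to 0.81 (adjusted p in edgeR 0.937). Without PRATA replicate 3, the highest PRATA sample for both receptors, the log2 fold change was -0.42 for Mrgprd and -0.19 for Lpar3.

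A further list of 12 non-peptidergic genes, of which 11 were tested, held 9 genes higher and 2 lower, with 0 past the call and a median of 0.16 on the log2 scale. This median was 0.30 without PRATA replicate 2, 0.46 without sham replicate 2, 0.08 without sham replicate 3, 0.01 without PRATA replicate 3, -0.01 without sham replicate 1 and -0.19 with only the 4 samples. P2rx3, the ATP-gated channel subunit of these neurons, was at 403 ± 103 CPM and 379 ± 156 CPM (SD, n = 3 each) in PRATA and sham rats. Ret, the signalling receptor for GDNF family factors, had a log2 fold change of 0.47 (adjusted p in edgeR 0.344) with overlapping groups. Runx1, a transcription factor that these neurons use but that other cells also express, had the smallest p of the list and was lower, at 78.5 ± 8.52 CPM against 136 ± 39.1 CPM (SD, n = 3 each), a log2 fold change of -0.79 (edgeR p 0.0103 unadjusted and 0.179 adjusted). Of 5 pruriceptor genes tested, 3 were higher and 2 lower with a median of 0.19, which was between -0.08 without sham replicate 1 and 0.28 without sham replicate 2. Il31ra, a subunit of the interleukin-31 receptor, had a log2 fold change of 0.21 and Osmr, its partner, of -0.34 (adjusted p in edgeR 0.566 and 0.502). In the LPA list 4 of 7 genes tested were higher and 3 lower with a median of 0.14, which was -0.39 without PRATA replicate 2 and -0.22 without sham replicate 3. Plpp3, an LPA phosphatase, and Enpp2, which makes LPA, had log2 fold changes of -0.50 and 0.22, with edgeR adjusted p of 0.402 and 0.590.

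For C-LTMRs, Th (ENSRNOG00000020410), the rate-limiting enzyme of catecholamine synthesis, had 4, 9 and 14 counts in PRATA replicates 1, 2 and 3 and 5, 2 and 1 counts in sham replicates 1, 2 and 3. These are 0.515, 0.715 and 1.104 CPM in PRATA rats and 0.344, 0.311 and 0.0942 CPM in sham rats, and 2 of the sham samples lay under the floor of 3 counts. The groups did not overlap, but 35 counts over all samples were too few for the filter, and without a filter edgeR gave an unadjusted p of 0.121. Of the defining C-LTMR markers, Th was thus near the floor and Slc17a8 had at most 38 counts in a sample. Of 6 further C-LTMR genes all 6 were higher, with 0 past the call and a median log2 fold change of 0.46, which was 0.26 without PRATA replicate 1. Tafa4, a secreted protein of C-LTMRs, was at 7.86 ± 1.59 CPM and 5.29 ± 1.35 CPM (SD, n = 3 each), a log2 fold change of 0.58 (adjusted p in edgeR 0.328), and Zfp521, a zinc finger protein, had 0.45 with groups apart (edgeR p 0.0395 unadjusted and 0.251 adjusted).

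Other genes of catecholamine handling were mostly low as well. Dbh, which makes noradrenaline, had at most 4 counts in any sample, and 9 of the 14 listed genes passed the filter, 5 higher and 4 lower with a median log2 fold change of 0.09, which was -0.04 without PRATA replicate 3 and 0.20 without sham replicate 3. Gch1, which makes the cofactor tetrahydrobiopterin that tyrosine hydroxylase and nitric oxide synthases need, passed the call. It was at 7.34, 8.74 and 3.86 CPM in PRATA rats and 3.10, 2.65 and 2.92 CPM in sham rats, a log2 fold change of 1.19 (edgeR standard error 0.36 and adjusted p 0.182), and 0.94 and no longer past the call without PRATA replicate 2. Qdpr, which regenerates this cofactor, had a log2 fold change of 0.54 (edgeR p 0.0343 unadjusted and 0.240 adjusted), also with groups apart. The sympathetic neuron list summed to between 9.94 and 41.6 CPM in PRATA rats and between 9.51 and 17.6 CPM in sham rats. Its Npy, a neuropeptide also of injured sensory neurons, stood at 33.8 CPM in PRATA replicate 2 and at most 3.09 CPM in any other sample, and Slc6a2, the noradrenaline transporter, had a log2 fold change of -1.32 (adjusted p in edgeR 0.289).

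For nitric oxide signalling, 5 of the 9 genes tested were higher and 4 lower, with a median log2 fold change of 0.29. It was 0.03 without sham replicate 1, 0.17 without PRATA replicate 3 and -0.07 with only the 4 samples. Ddah1, which breaks down an inhibitor of nitric oxide synthases, was at 49.3, 70.4 and 57.1 CPM in PRATA rats and 25.1, 47.2 and 30.0 CPM in sham rats, a log2 fold change of 0.80 (edgeR p 0.0166 unadjusted and 0.199 adjusted). As for Nos1, PRATA replicate 2 was highest and sham replicate 2 the nearest sham sample. Gucy1a1, a subunit of the guanylate cyclase that nitric oxide activates, passed the call downward, at 9.84 ± 1.07 CPM against 19.8 ± 6.35 CPM (SD, n = 3 each), a log2 fold change of -1.02 (adjusted p in edgeR 0.168), and kept the call in 7 of 13 alternatives, with -0.71 in the 4 samples. The groups of both genes were apart.

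For proprioceptors, Pvalb (ENSRNOG00000006471), the calcium buffer parvalbumin, was at 18.1, 4.37 and 18.6 CPM in PRATA replicates 1, 2 and 3 and at 4.55, 15.6 and 10.1 CPM in sham replicates 1, 2 and 3. The sham values lay within the range of the PRATA values. Its log2 fold change was 0.46 with a 95% interval from -0.90 to 1.82 (adjusted p in edgeR 0.707), and it was -0.21 with only the 4 samples other than PRATA replicate 3 and sham replicate 1. All 8 further proprioceptor genes were higher, with 0 past the call and a median of 0.32, which was 0.12 without PRATA replicate 3 and 0.53 without PRATA replicate 2. Ntrk3, the receptor for neurotrophin-3, was at 23.4 ± 4.26 CPM against 14.5 ± 2.59 CPM (SD, n = 3 each), a log2 fold change of 0.69 (edgeR p 0.0143 unadjusted and 0.192 adjusted), and Whrn, the scaffold protein whirlin, had 0.47 (edgeR p 0.0383 unadjusted and 0.247 adjusted). Of 12 genes of A-fibre low-threshold mechanoreceptors tested, 11 were higher, with a median of 0.59 (0.37 without PRATA replicate 1). The exception was Ntrk2, the receptor for brain-derived neurotrophic factor, whose log2 fold change was -1.04 (adjusted p in edgeR 0.175) and which kept the call in 8 of 13 alternatives, with -0.86 in the 4 samples. Ntrk2 is also made by other cells. Cacna1h, a low-voltage-activated calcium channel, had the smallest p among the higher genes of this list, with a log2 fold change of 0.64 (edgeR p 0.00962 unadjusted and 0.175 adjusted).

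Spp1 (ENSRNOG00000043451) encodes osteopontin, a secreted ligand of integrins and CD44 that is made by large DRG neurons and also by macrophages, glia and injured tissue. It was at 486, 909 and 430 CPM in PRATA replicates 1, 2 and 3 and at 788, 493 and 1482 CPM in sham replicates 1, 2 and 3. Sham replicate 3 stood highest and sham replicate 2 lay among the PRATA samples. The log2 fold change was -0.60 with a 95% interval from -1.62 to 0.42 (adjusted p in edgeR 0.493), and it was -0.07 without sham replicate 3 and -1.01 without PRATA replicate 2. Spp1 and Pvalb, both taken as proprioceptor markers, did not follow each other. Within PRATA the sample with the highest Spp1 had the lowest Pvalb, and within sham the sample with the lowest Spp1 had the highest Pvalb.

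Beside Spp1, all 9 satellite glial genes were lower in PRATA rats, with a median log2 fold change of -0.58. It was -1.02 without PRATA replicate 2, -0.26 without PRATA replicate 3 and -0.23 with only the 4 samples. In PRATA replicates 1, 2 and 3 they summed to 3949, 6337 and 3330 CPM, and in the sham replicates to 7658, 4476 and 8699 CPM, so the order of the samples within each group was that of Spp1. Sox10, a transcription factor of glia, was the gene of this list past the call, at 63.2 ± 23.3 CPM against 196 ± 80.1 CPM (SD, n = 3 each), a log2 fold change of -1.63 (adjusted p in edgeR 0.156) and -1.36 with only the 4 samples. The macrophage list summed to between 35.4 and 130 CPM in PRATA rats and between 63.7 and 108 CPM in sham rats, with 7 of 11 genes higher, C1qa at a log2 fold change of 1.55 and Adgre1 at -1.21 (adjusted p in edgeR 0.289 and 0.313). Of the 8 Schwann cell genes 7 were higher, and Prx, a myelin protein, passed the call with a log2 fold change of 1.39 (adjusted p in edgeR 0.182), but with 0.89 lost it without PRATA replicate 2. The fibroblast list summed to between 356 and 2023 CPM in PRATA rats and between 948 and 1904 CPM in sham rats, with 6 of 7 genes lower, and 6 of the 7 endothelial genes were higher with a median of 0.28. The endothelial median was 1.07 without sham replicate 2 and -0.11 without sham replicate 3. The median was 0.61 for the Schwann cell list (0.22 without PRATA replicate 2) and 0.46 for the macrophage list (-0.07 without PRATA replicate 3). For the fibroblast list it was -0.47, and -0.05 without PRATA replicate 1. Medians above 0 were thus not confined to lists of neurons. The part of these cells in the levels of Spp1 and of the other members was not tested.

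Of the 8 osteopontin receptor genes, 7 were lower in PRATA rats, with a median log2 fold change of -0.65, and 4 of these had an unadjusted p under 0.05 in edgeR, where 10.1% of all genes tested did so in this direction. Itgb3, the integrin beta-3 subunit, passed the call at 4.11 ± 1.15 CPM against 10.1 ± 3.69 CPM (SD, n = 3 each), a log2 fold change of -1.30 (adjusted p in edgeR 0.169). Itga5, the alpha subunit of a fibronectin receptor, had a log2 fold change of -0.90 (edgeR p 0.00948 unadjusted and 0.175 adjusted). These receptors are made by many cell types besides neurons.

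The peptidergic list, which holds none of the members, had a median that lay between 0.47 and 0.81 in all 13 alternatives. Over the same alternatives the A-fibre low-threshold mechanoreceptor median lay between 0.37 and 0.73 and the pan-neuronal median between 0.26 and 0.66. All 8 peptidergic genes were higher in PRATA rats with a median log2 fold change of 0.63. Of these, 4 had an unadjusted p under 0.05 in edgeR, where 8.19% of all genes tested did so in this direction. Calca, the CGRP gene on which the study turned, was at 602 ± 87.9 CPM against 334 ± 95.3 CPM (SD, n = 3 each), a log2 fold change of 0.85 (adjusted p in edgeR 0.175). Adcyap1, the neuropeptide PACAP, passed the call with 1.18 (adjusted p in edgeR 0.156). The lists differed in size and level, and their medians are a description with no test between classes.

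**Figure D2:**
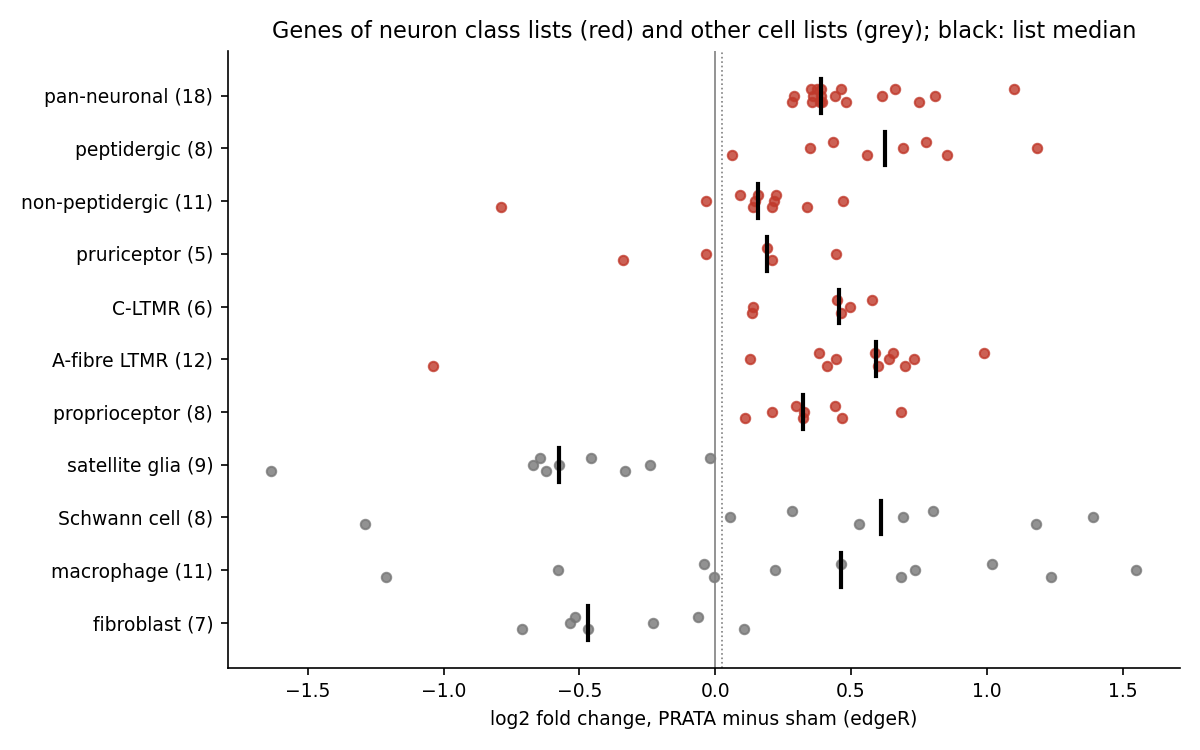
Log2 fold changes, PRATA minus sham, of single genes in lists of neuron classes (red) and of other cells (grey), with the list median as a black line, the number of genes tested in brackets and the median of all genes tested as a dotted line. The pan-neuronal, peptidergic, C-LTMR and proprioceptor lists lie wholly above 0, the satellite glial list wholly below, and the non-peptidergic and pruriceptor lists have medians of 0.16 and 0.19. Among the other cells, the Schwann cell and macrophage lists have medians of 0.61 and 0.46.

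The 18 pan-neuronal genes were all higher in PRATA rats, as were 52% of all genes tested. Of the 18, 5 had an unadjusted p under 0.05 in edgeR, beside 8.19% of all genes tested in this direction. The RNA-binding protein gene Celf4 alone was past the call, beside 1.17% of all genes tested. The summed level of the 18 genes lay between 7660 and 9103 CPM in PRATA rats and between 4429 and 6841 CPM in sham rats. To set the members against neuronal RNA as a whole, the mean log2 CPM of these genes was subtracted within each sample. That mean was 0.51 higher in PRATA rats, with 7.41 in PRATA replicate 2 and 7.44 in sham replicate 2, so the groups overlapped. After the subtraction 0 of the 9 members had groups that did not overlap, where 27.8% of all genes tested did, 27.1% with PRATA lower and 0.643% with PRATA higher. The difference was 0.87 for Nos1, 0.28 for Kit and 0.22 for Slc17a6 on the log2 scale. For Slc17a7 it was -0.08, for Pvalb -0.16, for Lpar3 -0.42, for Mrgprd -0.57, for Slc17a8 -0.70 and for Spp1 -1.04. These values moved with single libraries: without PRATA replicate 2 it was 0.45 for Pvalb and 0.34 for Slc17a7, which was also 0.02 with the median of the pan-neuronal list, and for Slc17a8 it lay between -1.23 and -0.10 over 11 alternatives. Nos1 lay between 0.59 and 1.16, Kit between 0.12 and 0.53, Slc17a6 between 0.10 and 0.32, Mrgprd between -0.91 and -0.40, Lpar3 between -0.68 and -0.28 and Spp1 between -1.61 and -0.63. None of these differences gave an exact permutation p under 0.20, two-sided, with 3 samples against 3. Nos1 ran from -1.76 to -0.81 in PRATA rats and from -2.74 to -1.67 in sham rats relative to the pan-neuronal mean, so that sham replicate 2 lay above PRATA replicate 1 by this measure.

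**Figure D3:**
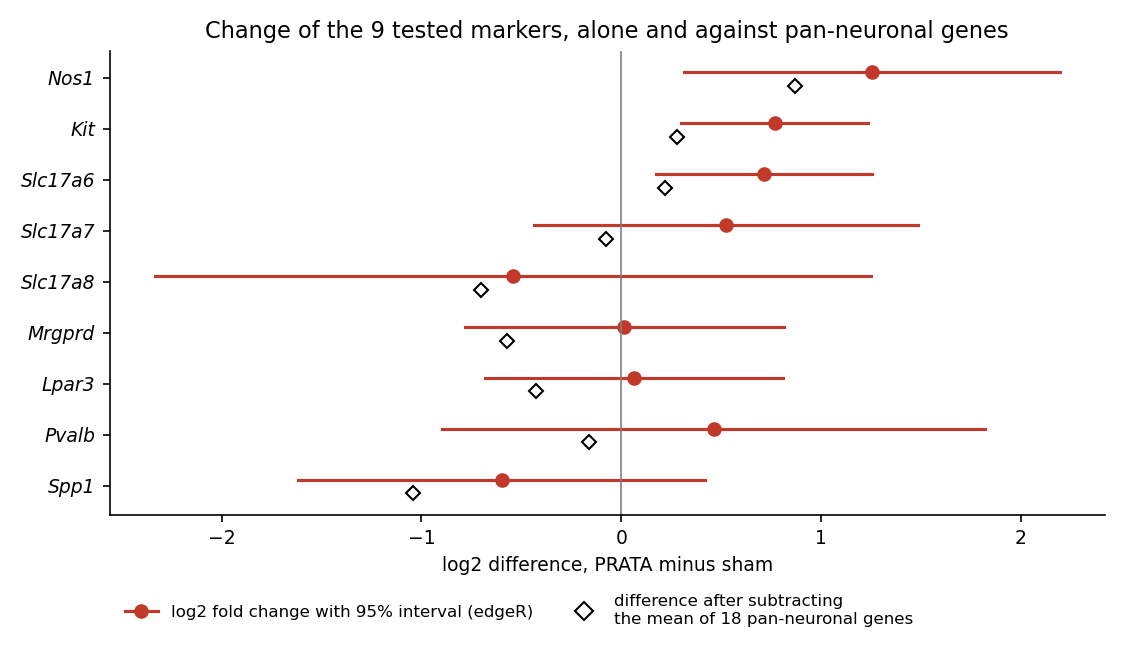
Log2 fold change of the 9 members tested, PRATA minus sham, with its 95% interval from edgeR (red), and the log2 difference after the mean of 18 pan-neuronal genes was subtracted in each sample (open diamonds). The intervals of Nos1, Kit and Slc17a6 lie above 0. The subtracted mean was 0.51 higher in PRATA rats, so the subtraction itself moves each of the 9 members down. After it Nos1 is highest at 0.87 and Spp1 lowest at -1.04.

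Whether a class differed more than another was read from the log2 ratio of members within each sample, which depends little on the scaling between libraries. Of 36 pairs of members, 3 had groups that did not overlap, a smaller share than the 17.5% found for the ratios of all genes to the members. In the order of their replicate numbers, the PRATA samples had log2 ratios of Mrgprd to Slc17a6 of -4.58, -4.65 and -3.96 and the sham samples of -3.52, -3.66 and -3.65, a difference of -0.79. The ratio of Lpar3 to Slc17a6 was -3.85, -3.83 and -3.56 in the PRATA samples and -3.00, -2.93 and -3.38 in the sham samples, a difference of -0.64. Both non-peptidergic receptors were thus lower relative to Slc17a6 in every PRATA sample than in any sham sample, which also held for 41.2% of all genes tested. The ratio of Lpar3 to Nos1 differed by -1.29, with groups apart, as for 50.9% of all genes tested. Taken from the other side, the ratio of a gene to Mrgprd was higher in every PRATA sample for 3.54% of the genes tested and the ratio to Lpar3 for 2.67%, and Slc17a6 was among both and Nos1 among the latter. These are the same separations read the other way. Slc17a6 and Nos1 were already known to be higher in these samples, so the small shares add no support.

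The exact permutation p of each of these 3 pairs was 0.10, the smallest that 3 samples against 3 can give, so that no pair could pass a threshold of 0.05. The ratio of Mrgprd to Nos1 had a larger difference, -1.44, but its groups touched, with -1.97 in sham replicate 2 and -1.96 in PRATA replicate 3. Slc17a6 and Kit had a difference of -0.06 in their log2 ratio, with overlapping groups. The ratio of Slc17a6 to Nos1 differed by -0.65 with overlapping groups. None of the 3 pairs apart sets a class against another, as most DRG neurons use Slc17a6 and Nos1 was given no class. Every pair of tested markers from different classes had overlapping groups. The differences were -0.41 for Mrgprd to Pvalb, 0.47 for Mrgprd to Spp1 and 0.13 for Mrgprd to Slc17a8. They were -0.26, 0.62 and 0.28 for Lpar3 to these same genes, and -0.54 and 0.34 for Slc17a8 to Pvalb and Spp1.

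**Figure D4:**
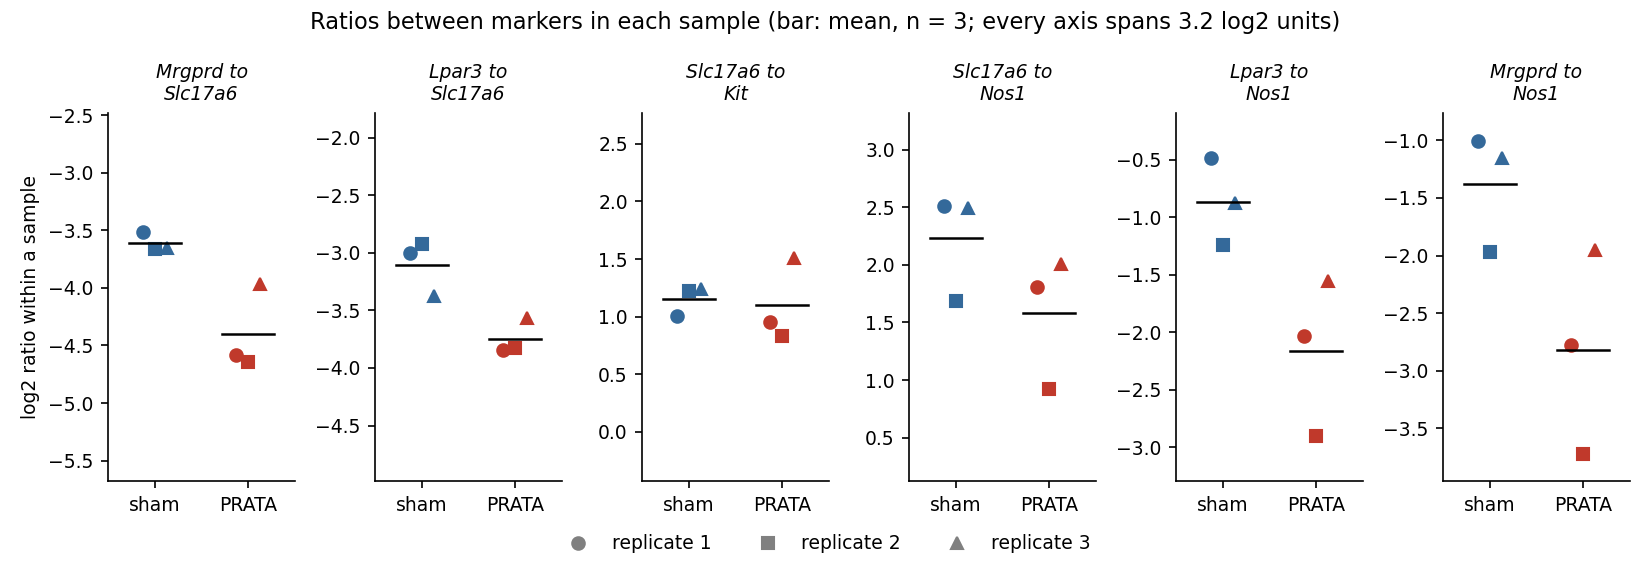
Log2 ratio of pairs of members within each sample, with sham samples in blue, PRATA samples in red, a symbol for each replicate number and the group mean as a bar. The groups are apart for Mrgprd to Slc17a6, Lpar3 to Slc17a6 and Lpar3 to Nos1, touch for Mrgprd to Nos1 and overlap for Slc17a6 to Kit.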

How the data were processed

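RNA of neuron preparations from the L1-L2 DRGs was sequenced in 3 PRATA and 3 sham samples, each a different rat by the series' design. The authors deposited raw counts of reads per gene, without normalization. The submitters' processing notes name STAR 2.7.3a, RSEM and DESeq2, whereas the methods of the paper name HISAT2, StringTie and Cuffdiff; which tool made the counts, the strand setting, the build and the annotation are not given in the sources used here. Libraries were stranded total RNA libraries with ribosomal fragments cleaved. All columns of sample values were used. Differences were tested in edgeR 4.0.16 under R 4.3.3: filterByExpr kept genes by its count limits of 10 per sample and 15 in total, TMM scaled the libraries, and the two-sided quasi-likelihood test had no covariate and was adjusted over 14919 genes by the Benjamini-Hochberg method. Alternatives used DESeq2 1.42.0 and limma 3.58.1, after tests on simulated data. Standard errors are the log2 fold change over the root of the test's F value. Log2 CPM used a prior count of 0.5, and single values used the exact permutation test. Intervals and floors cover counting error and the spread between these samples only, as no molecular identifiers were counted. Total counts per sample lay between 5892967 and 15226952, so genes of low level such as Th are measured least precisely. Transcript lengths were not given, so levels were not compared between genes.

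The members and the 21 further gene lists were chosen with earlier results of these data known. Named genes were the 10 members, Calca, and from each list up to 2 genes with the smallest p and any past the call; Tafa4 was matched from an older symbol. Eno2, Celf4, Rn7sl1, P2rx3, Dbh, Tyr and the mast cell genes given by their counts were named after their values were seen. Some listed genes are not analysed here, and 1 gene that the rule names is not reported here. Plots came from matplotlib 3.10.9 under Python 3.11.15. Alternatives were to drop the filter, to scale by library size alone or by DESeq2's size factors, to test with DESeq2 or with limma voom and quality weights, to add the replicate block, to leave out every sample in turn, and to keep the 4 samples other than PRATA replicate 3 and sham replicate 1. For the subtraction, the median of the pan-neuronal list, a prior count of 2 and, added after seeing the data, the list without Eno2 were also used.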

Additional observations from a re-analysis of the deposited data

How the results depend on the processing

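The number of members higher past the call was 1 in each of the alternatives of the fit except without PRATA replicate 2, sham replicate 1 or sham replicate 3, where it was 0 (range 0 to 1 with each sample left out), and 0 members were lower past the call in all 13. Members higher at an unadjusted p under 0.05 numbered 1 to 3 with each sample left out, with 1 without sham replicate 1 or sham replicate 3. Members at an adjusted p under 0.05 numbered 2 with DESeq2 (Kit 0.0341 and Nos1 0.0408), 3 with limma voom with quality weights and 0 to 3 with each sample left out, 3 of them without sham replicate 2, where 1.93%, 2.99% and 1.05% of all genes were higher at this level. The log2 fold change of Mrgprd was -0.00984 with DESeq2's size factors, -0.0301 with library size alone, -0.00956 with DESeq2, -0.0573 with the replicate block, -0.48 with only 4 samples and -0.42 to 0.25 with each sample left out. That of Lpar3 was -0.26 with only 4 samples and -0.19 to 0.40 with each sample left out, that of Pvalb -0.21 with only 4 samples, and that of Slc17a8 0.30 with voom and -1.10 to 0.59 with each sample left out. Kit kept its direction and side in 13 of 13 alternatives, Nos1 in 10 and Slc17a6 in 9. Relative to the pan-neuronal genes, 1 to 2 of 9 members had groups apart with each sample left out and 4 with only 4 samples, where 30.7% to 56.4% and 45.7% of all genes did. The pairs of members with groups apart numbered 4 to 10 of 36 and, with only 4 samples, 13, where 33.9% of the ratios of all genes to the members were apart (17.5% with all samples), so fewer samples separate more ratios. Genes past the call in the marker and pathway lists other than the pan-neuronal one numbered 3 higher and 6 lower of 146 tested, with 5 higher under DESeq2, 12 higher with only 4 samples, and 1 to 10 higher and 5 to 11 lower with each sample left out, where of all genes tested 1.12%, 2.84%, 0.641% to 2.34% and 2.43% to 4.36% were past it. The replicate numbers are not said to pair the samples: same-numbered samples deviated from their group means with a mean r of -0.24 across genes, 0 of 6 samples correlated best with their own number, and with the replicate block the members at an unadjusted p under 0.05 numbered 3 and the log2 fold change was 1.38 for Nos1 (edgeR adjusted p = 0.461). The cause of these shifts was not tested. Depth limits Th, which had 35 counts over all samples.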
